A study of Komagataella phaffii GS115 with 3 samples.

Results

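A set of 80 genes of the methylotrophic yeast Komagataella phaffii had transcript levels at least 4-fold higher both in a hydrogen peroxide (H2O2)-treated culture and in an hmt-deficient strain than in an untreated culture. They were taken from 5040 measured genes, of which 4998 reached 10 FPKM (fragment counts divided by gene length and by library size) in at least 1 of 3 libraries. A gene entered the set when it reached that minimum and when log2 of (FPKM + 1) exceeded the untreated value by 2 or more in both other libraries. The 3 libraries came from GS115 treated with H2O2, from an hmt-deficient derivative of GS115 in regular culture, and from GS115 itself in regular culture, with 1 library each. GS115, the background of all 3 cultures, is a histidine auxotroph used as a host for protein production. Whether the hmt-deficient strain kept the histidine requirement is not stated in the material used here. The dose and duration of the H2O2 treatment, the medium, the gene that hmt stands for, how it was disrupted and how many clones were used are all not given in the material used here.

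Hydrogen peroxide is an oxidant that yeast cells meet from outside and also make themselves. In methylotrophic yeasts it is a product of alcohol oxidase, the peroxisomal enzyme that oxidises methanol. In Saccharomyces cerevisiae, exposure to H2O2 raises transcripts for peroxide removal and protein repair through factors such as Yap1 and lowers transcripts for growth. The genes near chromosome ends of that yeast are often kept at low levels by silent chromatin. The deposited tables and the gene table used here identify the K. phaffii genes by locus tag, without a gene name or product, so the genes below are described by level, length and place in the genome and no function is given.

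Of the 4998 genes past the minimum, 131 (2.62%) were 4-fold or more higher in the H2O2-treated than in the untreated library, and 166 (3.32%) were 4-fold or more higher in the hmt-deficient than in the untreated library. The 80 genes that met both conditions are 1.6% of all genes past the minimum, 61.1% of the H2O2 list and 48.2% of the hmt list. Both ratios divide by the same untreated library, so a low value there raises both, and the size of this overlap is not read as a result. With 1 library per group no difference has a replicate check. Intervals on folds are exact 95% intervals from fragment counts recovered from FPKM and coding length, and they cover counting error only.

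The 80 genes ranged in the H2O2-treated library from 7.00 to 5416 FPKM with a median of 110.0, in the hmt-deficient library from 12.0 to 3665 FPKM with a median of 151.8, and in the untreated library from 0.474 to 591 FPKM with a median of 9.68. In the untreated library they were mostly rare transcripts: the median gene of the set stood at percentile 2.91 of all genes there, and 13 of the 80 lay above that library's own median. In the H2O2-treated library the median percentile was 71.6 and 50 genes lay above the library median. In the hmt-deficient library the median percentile was 76.5, with 58 genes above the library median. The median gene of the set thus lay in the upper part of the expression range in both of these libraries. In untreated GS115 it lay near the bottom, and in each library single genes lay on either side of the library median. Together the 80 genes held 3.76% of the summed FPKM after H2O2 and 3.70% of it with hmt deficient, against 0.383% in untreated GS115. These levels follow from how the genes were chosen and are given as a description.

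**Figure D1:**
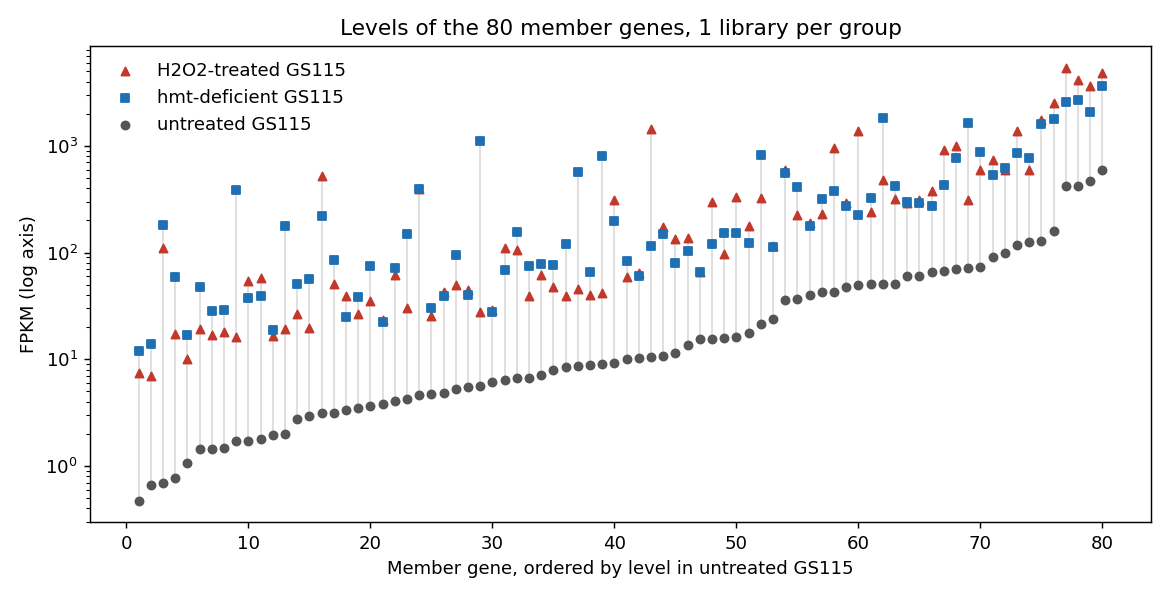
FPKM (log axis) of each of the 80 genes in the H2O2-treated (triangles), hmt-deficient (squares) and untreated (circles) library, with genes ordered by their untreated level and grey lines joining the untreated value to the highest value. Untreated levels run from 0.474 to 591 FPKM, and every triangle and square lies above its circle, as the rule requires.

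The median log2 ratio to untreated GS115 within the set was 2.92 with H2O2 and 3.17 with hmt deficient, beside -0.38 and -0.07 over all genes past the minimum. On the FPKM scale the median fold was 9.46 after H2O2 (range 4.29 to 167) and 11.0 in the hmt-deficient strain (range 4.12 to 257). On the log2 scale of FPKM + 1, which is also the scale of the rule, a difference of 8-fold or more was met by 33 of the 80 after H2O2, 47 in the hmt-deficient strain and 22 in both, beside 0.96%, 1.44% and 0.44% of all genes past the minimum. At 32-fold or more in both, on the same scale, there were 3 genes, PAS_chr3_0403, PAS_FragB_0069 and PAS_chr3_1145 (0.06% of all genes past the minimum). The same ratios chose the set, so the contrasts with all genes follow from the rule. Any gene past the minimum that was 8-fold or more higher in both belongs to the set by definition.

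PAS_chr3_0403, with a coding length of 2019 bp, was the gene whose smaller log2 ratio of FPKM + 1 was the highest of the set, at 6.11, against 6.04 for PAS_FragB_0069. With a pseudocount of 0.1 the order turned, at 6.36 for PAS_chr3_0403 and 7.11 for PAS_FragB_0069. It stood at 397.6 FPKM after H2O2 and 391.3 FPKM in the hmt-deficient strain, against 4.68 FPKM in untreated GS115. The folds over untreated were 85.0 (95% counting interval 72.2 to 101) and 83.7 (71.1 to 99.2). The levels in the H2O2-treated and hmt-deficient libraries differed by a factor of 1.02 (0.994 to 1.04), an interval that includes equality; as TPM (each library brought to the same sum) the log2 ratio was -0.17.

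PAS_FragB_0069 is the outermost annotated gene at the last end of chromosome 1. It stood at 110.8 FPKM after H2O2 and 179.7 FPKM in the hmt-deficient strain, against 0.700 FPKM in untreated GS115. The untreated value rests on 6 fragments, so its folds are loosely bounded, at 158 (78.4 to 467) after H2O2 and 257 (127 to 757) in the hmt-deficient strain. Even the lower bounds keep it among the genes that differ most. PAS_chr3_1145, the tenth gene from the first end of chromosome 3, was at 518.8 FPKM after H2O2, 218.6 FPKM in the hmt-deficient strain and 3.11 FPKM in untreated GS115.

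The other genes with a large difference in both libraries started from higher untreated levels in several cases. PAS_chr4_0914, with a coding length of 366 bp, stood at 312.1 FPKM after H2O2, 198.8 FPKM in the hmt-deficient strain and 9.25 FPKM untreated. PAS_chr3_0982 stood at 599.5, 554.5 and 35.8 FPKM in the same libraries, 16.7-fold (15.8 to 17.8) and 15.5-fold (14.6 to 16.5) above untreated. PAS_chr4_0314 stood at 327.2, 816.1 and 21.3 FPKM. PAS_chr3_0982 and PAS_chr4_0314 rest on 1095 and 592 untreated fragments, while PAS_chr4_0914 rests on 52, and its folds are more loosely bounded, at 33.7 (25.6 to 45.3) after H2O2 and 21.5 (16.3 to 28.9) in the hmt-deficient strain. PAS_chr1-3_0278 was at 57.9 FPKM after H2O2, 39.2 FPKM in the hmt-deficient strain and 1.79 FPKM untreated, the last from 13 fragments, and its annotated span overlaps that of PAS_chr1-3_0279. PAS_chr1-1_0334 was at 105.9, 154.4 and 6.64 FPKM, and PAS_chr2-2_0223 at 174.4, 148.7 and 10.8 FPKM. In the last 2 genes the H2O2-treated and hmt-deficient levels differed by less than 2-fold, in opposite directions. As TPM the log2 ratio of H2O2-treated to hmt-deficient was -0.73 for PAS_chr1-1_0334 and 0.03, close to equality, for PAS_chr2-2_0223.

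The most abundant genes of the set were already well expressed in untreated GS115. PAS_chr2-2_0236, with a coding length of 516 bp, stood at 5416 FPKM after H2O2 and 2596 FPKM in the hmt-deficient strain, against 420.7 FPKM untreated. PAS_chr2-2_0220 stood at 4787, 3665 and 590.9 FPKM, and PAS_chr2-1_0313 at 4115, 2682 and 423.3 FPKM. All 3 were above percentile 90 in the untreated library, at 90.9, 93.5 and 91.0, and above percentile 99 in both other libraries. PAS_chr4_0151 followed at 3632, 2072 and 467.3 FPKM, and PAS_chr4_0181 at 2515, 1778 and 160.9 FPKM. Each of these 5 genes was higher after H2O2 than in the hmt-deficient strain. The factors ran from 1.31 (1.29 to 1.32) for PAS_chr2-2_0220 to 2.09 (2.06 to 2.12) for PAS_chr2-2_0236. As TPM all 5 log2 ratios stayed above 0 but were smaller, from 0.19 for PAS_chr2-2_0220 to 0.87 for PAS_chr2-2_0236, which is under 2-fold.

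Comparing the H2O2-treated with the hmt-deficient library directly leaves out the untreated library, but strain and treatment differ together in it. All 3 libraries fed the rule, so the values are a description. Within the set 58 of 80 genes (72.5%) were within 2-fold of each other, close to the 70.5% of all genes past the minimum. In the other 22, the H2O2-treated library was 2-fold or more higher for 8 genes (10% of the set, beside 6.46% of all genes) and 2-fold or more lower for 14 (17.5%, beside 23.0%). After rescaling to TPM these became 5 higher and 19 lower, beside 4.7% and 29.8% of all genes. The median log2 ratio of H2O2-treated to hmt-deficient was -0.12 for the set and -0.34 for all genes past the minimum. TPM moved these to -0.31 and -0.53, a shift of -0.19 that applies to the direct ratios of single genes above and below as well. The share of genes with like levels in these libraries was thus about that of genes at large. Across genes, which are not replicates, log2 levels of the libraries correlated with Pearson r 0.81 over the 80 genes and 0.83 over all 4998.

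**Figure D2:**
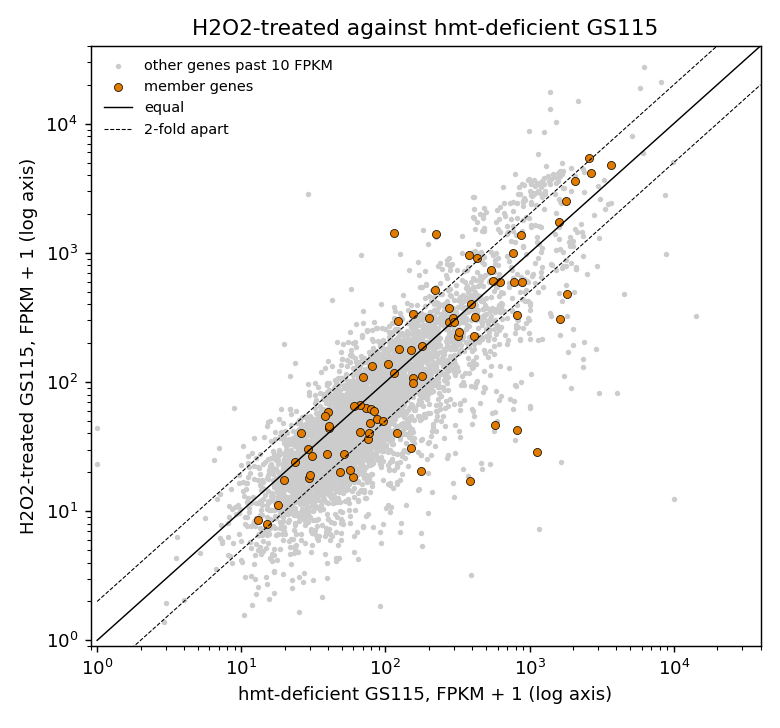
FPKM + 1 in the H2O2-treated library (vertical, log axis) against the hmt-deficient library (horizontal, log axis) for the 80 genes (large points) and other genes past 10 FPKM (small points), with lines of equality and of 2-fold difference. Of the 80, 58 lie between the dashed lines, 8 lie above them and 14 below.

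Genes much higher in the hmt-deficient strain than after H2O2 formed the longer tail. This was also so over all genes past the minimum, where 5.52% were 4-fold or more lower after H2O2 and 0.9% higher. PAS_chr3_0002, the gene next to the outermost one on chromosome 3, stood at 27.7 FPKM after H2O2 and 1117 FPKM in the hmt-deficient strain, against 5.61 FPKM untreated. Its hmt-deficient level was 40.3 times its H2O2-treated level (37.9 to 42.8). PAS_chr3_0015 stood at 16.2, 383.7 and 1.70 FPKM in the same order, a factor of 23.7 (22.0 to 25.6) between the first 2. Both cleared the rule after H2O2 with modest levels, below the median of that library, while in the hmt-deficient strain they were above percentile 90, at 97.1 and 90.4.

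The same pattern held for PAS_chr2-2_0482, at 41.7 FPKM after H2O2, 812.4 FPKM in the hmt-deficient strain and 8.99 FPKM untreated. PAS_chr3_0095 was at 45.4, 574.5 and 8.72 FPKM, and PAS_chr4_0357 at 19.3, 176.8 and 1.99 FPKM. In these 3 genes the hmt-deficient level was 19.5 (18.7 to 20.3), 12.7 (12.1 to 13.3) and 9.15 (8.27 to 10.1) times the H2O2-treated level. Of the set, 7 genes were 4-fold or more lower after H2O2 than in the hmt-deficient strain (8.75%, beside 5.52% of all genes). The other 2 of the 7, outside the rule for named genes and picked after their values were seen, were PAS_chr4_0337 (308.9, 1630 and 71.5 FPKM) and PAS_chr4_0399 (30.1, 150.2 and 4.29 FPKM).

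In the other direction PAS_chr4_0008, the fifth gene from the first end of chromosome 4, stood at 1435 FPKM after H2O2 and 114.5 FPKM in the hmt-deficient strain, against 10.4 FPKM untreated. Its H2O2-treated level was 12.5 times its hmt-deficient level (12.1 to 13.0). PAS_chr2-2_0065 stood at 1386, 222.8 and 49.3 FPKM, a factor of 6.22 (6.05 to 6.40). These were the 2 genes of the set 4-fold or more higher after H2O2 than in the hmt-deficient strain (2.5%, beside 0.9% of all genes). PAS_chr3_0225 at 960.2, 379.7 and 42.4 FPKM, PAS_chr4_0851 at 296.6, 120.9 and 15.6 FPKM and PAS_chr3_1145, described above, differed by factors of 2.53 (2.47 to 2.59), 2.45 (2.34 to 2.57) and 2.37 (2.32 to 2.43).

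The balance of H2O2-treated against hmt-deficient levels followed the untreated level. For the 26 genes under 5 FPKM in untreated GS115 the median log2 ratio of H2O2-treated to hmt-deficient was -0.67, and the H2O2-treated level was the higher one for 7. For the 25 genes from 5 to 20 FPKM and the 21 genes from 20 to 100 FPKM the medians were 0.02 and 0.02. For the 8 genes at 100 FPKM or more the median was 0.56, and 7 of 8 were higher after H2O2. Across all levels the H2O2-treated value was the higher one for 47.5% of the set and 34.9% of all genes past the minimum. As TPM the medians of the 4 classes were -0.86, -0.18, -0.17 and 0.36, so both middle classes turned negative, and 6 of the 8 abundant genes were higher after H2O2. Within the set, genes nearly silent in untreated GS115 were thus more often higher in the hmt-deficient strain. The 8 abundant ones were more often higher after H2O2. All genes past the minimum showed the same order, with medians of -0.84, -0.66, -0.43 and -0.09, so the order is not particular to the set. All 4 of these medians were negative, so abundant genes at large were not more often higher after H2O2. Median levels in the lowest class were 26.1 FPKM after H2O2, 43.4 FPKM in the hmt-deficient strain and 2.38 FPKM untreated. In the highest class they were 3073, 1925 and 290.8 FPKM.

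**Figure D3:**
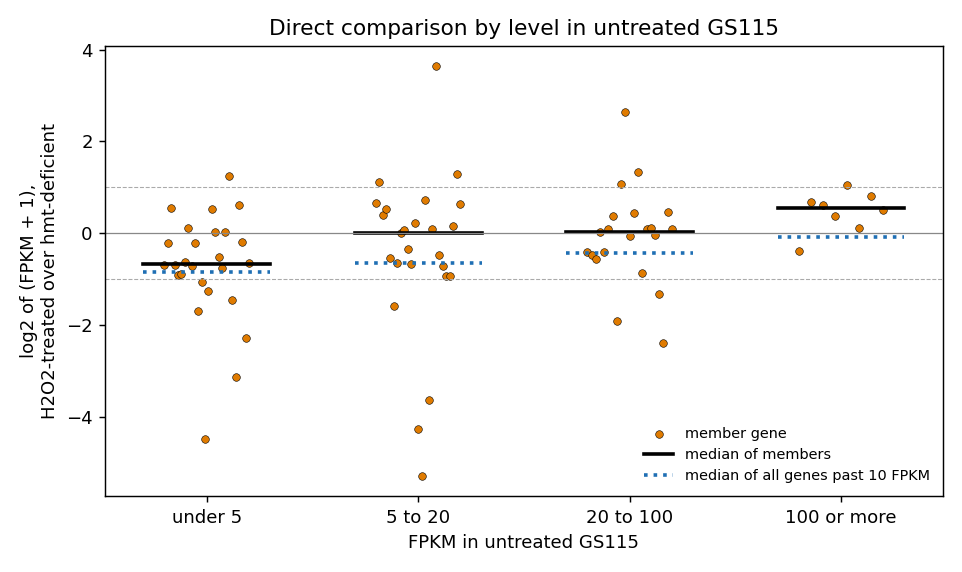
Log2 of (FPKM + 1) in the H2O2-treated library over that in the hmt-deficient library for the 80 genes, grouped by FPKM in untreated GS115, with the median of the set (black line) and of all genes past 10 FPKM (dotted line). The set's medians run from -0.67 under 5 FPKM to 0.56 at 100 FPKM or more, and those of all genes from -0.84 to -0.09.

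Among genes that passed the minimum, 56 stood under 5 FPKM in untreated GS115, and 26 of these belonged to the set. Each of the 56 passed only through a higher level in another library, which raises this share, so it is given as a count. At 100 FPKM or more, 8 of 1819 genes (0.440%) belonged to it. The genes 4-fold higher in only 1 of the libraries started from higher levels: the median untreated level was 9.68 FPKM for the set, against 110.9 FPKM for the 51 genes higher after H2O2 only and 34.0 FPKM for the 86 higher in the hmt-deficient strain only. Among the 51, 22 were 2-fold or more higher in the hmt-deficient strain as well, beside 11.1% of all genes past the minimum. Among the 86, 49 were 2-fold or more higher after H2O2 as well, beside 8.96%. Both ratios divide by the untreated level, so a low value there favours passing both cuts and also raises these shares. The medians and shares are therefore given as a description.

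Coding length was not part of the rule. The set had a median coding length of 1101 bp (range 153 to 2532), against 1200 bp (138 to 14853) for all genes past the minimum. When all genes past the minimum were divided into 3 length classes of about equal size, the short class held 27 of the 80, the middle 30 and the long 23. Length went along with the direct comparison: of the 14 genes 2-fold or more lower after H2O2 than in the hmt-deficient strain, 10 lay in the long class, 3 in the middle and 1 in the short. The median log2 ratio of H2O2-treated to hmt-deficient was 0.09, 0.02 and -0.65 from the short to the long class of the set. Over all genes past the minimum it was 0.01, -0.28 and -0.66, so the same order held there and is not particular to the set. Of all genes past the minimum, 23.0% were 2-fold or more lower after H2O2, a share that was not counted by length class. The part of length in the differences between single genes was not tested.

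The set was spread over all 4 chromosomes, with 20, 19, 20 and 21 genes on chromosomes 1 to 4. Chromosome 4 held 26.3% of the set and 19.3% of the genes past the minimum, and chromosome 1 held 25% of the set and 30.4% of those genes. Gene order was taken from the ASM2700v1 annotation, and no coordinates are given because no source used here names the authors' build. Within 20 genes of a chromosome end lay 12 of the 80 (15%), beside 3.10% of all genes past the minimum. Among genes under 10 FPKM in untreated GS115 the counts were 9 of 40 (22.5%) in the set and 19 of 113 (16.8%) over all. Each of the 113 passed the minimum only through a higher level in another library, and the 19 include the 9, so nothing is read from these shares. Of the 12 genes, 8 lay at the first end of chromosome 3. Without that end 4 of 72 remained (5.56%, beside 2.71% of all genes), namely PAS_FragB_0069 and PAS_chr4_0008, described above, with PAS_chr2-1_0012 and PAS_chr2-2_0021, picked after their values were seen. The last ends of chromosomes 3 and 4 and the first end of chromosome 1 held 0 genes of the set. Of the genes 4-fold higher in 1 library only, 2 of 51 (3.92%) in the H2O2 list and 8 of 86 (9.30%) in the hmt list lay within 20 genes of an end.

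**Figure D4:**
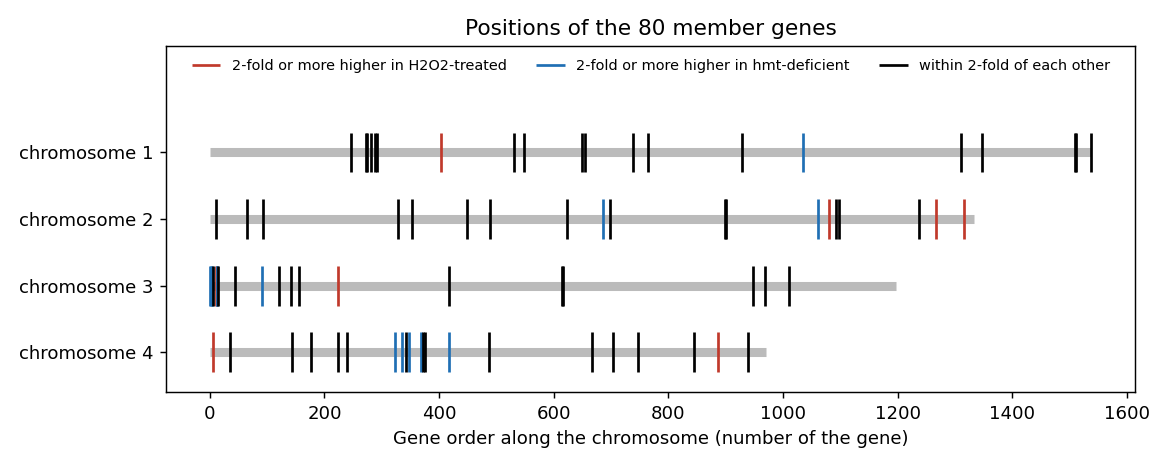
Positions of the 80 genes in gene order along chromosomes 1 to 4 (grey bars, in numbers of genes), with ticks coloured by whether the H2O2-treated library was 2-fold or more higher than the hmt-deficient one (red, 8 genes), 2-fold or more lower (blue, 14 genes) or within 2-fold (black, 58 genes). The first end of chromosome 3 holds 8 of the 80.

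The first 20 genes of chromosome 3 held the only directly adjacent genes of the set, in 2 runs of 3. The outermost run joins PAS_chr3_0001, PAS_chr3_0002 and PAS_chr3_0005. PAS_chr3_0001 stood at 17.4 FPKM after H2O2, 58.7 FPKM in the hmt-deficient strain and 0.779 FPKM untreated, the last from 12 fragments. PAS_chr3_0005 stood at 35.3, 74.6 and 3.63 FPKM. All 3 genes of this run were higher in the hmt-deficient strain than after H2O2, by factors of 3.38 (3.01 to 3.81), 40.3 and 2.11 (1.97 to 2.27) from the end inward.

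The second run joins PAS_chr3_0015, PAS_chr3_0016 and PAS_chr3_0017. PAS_chr3_0016 stood at 19.1 FPKM after H2O2, 47.2 FPKM in the hmt-deficient strain and 1.43 FPKM untreated. PAS_chr3_0017 stood at 54.0, 37.3 and 1.72 FPKM, and so was the higher after H2O2, by a factor of 1.45 (1.30 to 1.62). Neighbours in this run therefore differed in which library was the higher: the hmt-deficient level was 23.7 times the H2O2-treated one at PAS_chr3_0015 and 2.47 times (2.21 to 2.76) at PAS_chr3_0016. PAS_chr3_0008, also of the set, lay between the runs at 133.1, 79.9 and 11.5 FPKM.

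The 12 other genes of this end were mixed. In the hmt-deficient strain 6 of the 12 were 2-fold or more higher than untreated and 1 was 2-fold or more lower, and after H2O2 4 were higher and 1 lower (over all genes past the minimum, 11.1% and 11.0% in the hmt-deficient comparison and 8.96% and 25.8% in the H2O2 comparison). The lower gene was PAS_chr3_0023 in both, picked after its values were seen, at 2.95 FPKM after H2O2, 38.2 FPKM in the hmt-deficient strain and 545.9 FPKM untreated. A strongly lower gene thus sat 5 genes further inward than PAS_chr3_0017.

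**Figure D5:**
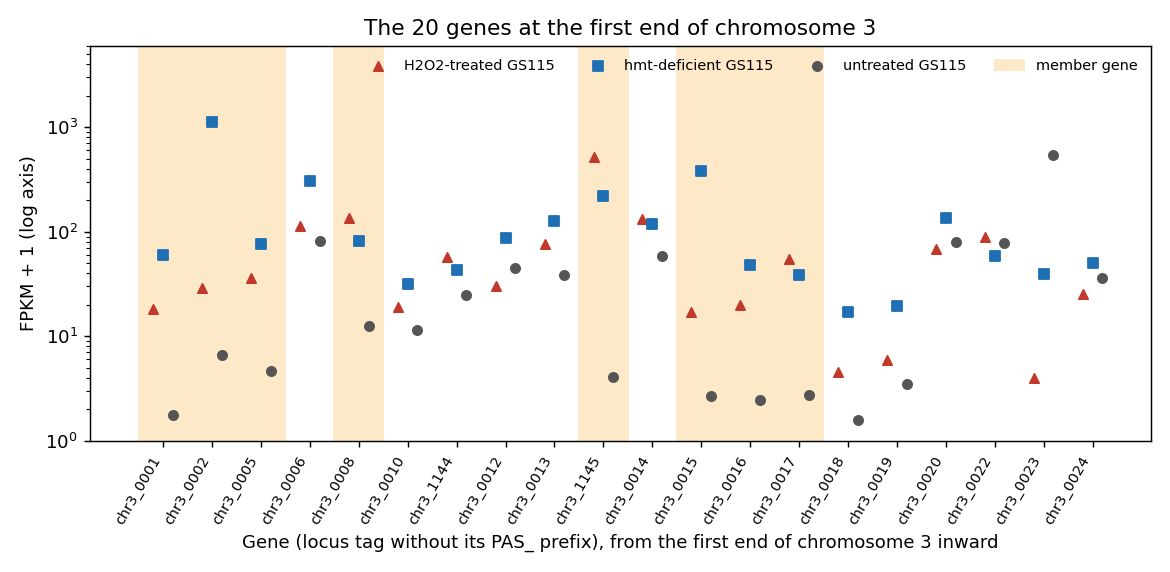
FPKM + 1 (log axis) of the 20 genes at the first end of chromosome 3, from the end inward, in the H2O2-treated (triangles), hmt-deficient (squares) and untreated (circles) library, with the 8 genes of the set shaded. The shaded genes have untreated levels from 0.779 to 11.5 FPKM, while PAS_chr3_0023, near the inner edge, runs the other way at 2.95, 38.2 and 545.9 FPKM.

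Away from that end the genes were scattered, with some stretches that held several of the set. The mean over the genome is 0.794 genes of the set per 50 genes. Stretches of 50 genes were ranked by their number after the values were seen. After the first end of chromosome 3 (9 genes), the highest numbers were 6 from PAS_chr1-3_0308 to PAS_chr1-1_0003 on chromosome 1 and 6 from PAS_chr4_0314 to PAS_chr4_0360 on chromosome 4. In the chromosome 4 stretch 4 of the 6 were 2-fold or more lower after H2O2 than in the hmt-deficient strain, with a median log2 ratio of -1.39. In the chromosome 1 stretch 0 of 6 were 2-fold apart, and the median was -0.52. Over all genes past the minimum 23.0% were 2-fold or more lower after H2O2, and the median was -0.34. The other genes of these stretches were not counted, so nothing is read about the regions. Both stretches lie far from the ends, at 247 and 323 genes or more.

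Genes directly beside those of the set, and not in it, were set against all other genes past the minimum. Of 146 such neighbours, 14 (9.59%) were 2-fold or more higher after H2O2 than untreated, beside 7.42% of the 4772 others. In the hmt-deficient strain 30 of 146 (20.5%) were 2-fold or more higher than untreated, beside 9.30%. The median log2 ratio of the neighbours was -0.18 with H2O2 and 0.16 with hmt deficient, against -0.41 and -0.09 for the others. Without the first 20 genes of chromosome 3 the shares of neighbours were 7.80% and 17.7%. Most neighbours were thus not 2-fold or more higher in either comparison. Their share was well above that of the others in the hmt-deficient comparison and close to it in the H2O2 comparison. The neighbours' median untreated level was 60.9 FPKM, against 71.8 FPKM for the others.

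The membership rule cuts through a continuous range. Just inside it lay PAS_chr2-1_0654 at 29.3 FPKM after H2O2, 27.8 FPKM in the hmt-deficient strain and 6.19 FPKM untreated, PAS_chr2-1_0425 at 65.9, 65.2 and 15.4 FPKM, and PAS_chr4_0806 at 376.2, 273.2 and 66.4 FPKM. Just outside lay PAS_chr4_0943 at 1010, 1205 and 266.1 FPKM, PAS_chr3_0410 at 1409, 693.8 and 185.0 FPKM, and PAS_chr3_1171 at 15.4, 41.3 and 3.48 FPKM. The smaller of the log2 ratios was at most 2.02 for the first 3 genes and from 1.87 to 1.92 for the others.

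Intervals for counting error left most of the set above the threshold. The same values chose the set, so these intervals lean high and are no independent check on membership. For 74 of the 80 genes the lower bounds of both folds were at 4 or more, and for all 80 they were at 2 or more. The 6 exceptions were the 3 genes just inside the rule together with PAS_chr1-3_0308, PAS_chr3_0049 and PAS_chr4_0333. In the untreated library 8 of the 80 genes rested on fewer than 20 fragments, the fewest being 5 for PAS_chr1-3_0308, whose folds were 9.48 (3.87 to 30.1) after H2O2 and 16.0 (6.61 to 50.3) in the hmt-deficient strain. In the H2O2-treated and hmt-deficient libraries the fewest were 69 and 63. Annotated spans of 4 genes, PAS_chr1-3_0278, PAS_chr1-1_0103, PAS_chr2-2_0090 and PAS_chr3_0601, overlap a neighbouring gene. Genes named here for few fragments or overlap alone were picked after their values were seen. How the authors' counting divided such fragments is not stated in the material used here.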

How the data were processed

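RNA-seq of ribosome-depleted RNA was carried out on 3 libraries of 1 culture each. Per the labels' protocols the libraries were fragmented, randomly primed and sequenced as paired ends. Tools listed without roles in the submitters' processing notes are HISAT2, HTSeq, featureCounts, Trimmomatic 0.39 and FastQC 0.12.1. The values are FPKM per gene, as deposited by the authors; neither the build nor the scaling total is stated in the material used here. The authors' normalized column equals FPKM for the H2O2-treated library and is 1.14 times FPKM for the hmt-deficient one, and served as an alternative.

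FPKM times coding length (ASM2700v1 gene table, all 5040 tags matched) gave whole fragments at fitted totals of 22355624 for the H2O2-treated, 18281725 for the hmt-deficient and 15358157 for the untreated library. Of 1977, 2027 and 3555 genes checked, 89.2%, 94.9% and 96.8% came within 0.1 of a whole number. Folds are ratios of FPKM with exact 95% intervals from these fragments, and log2 ratios use a pseudocount of 1, which understates changes of low genes. The fit of totals and the intervals were tested on simulated data. No p-value was computed, since each group holds 1 library. The members and lists were chosen with earlier results of these data known. Genes are named by fixed rules: the 10 with the largest smaller ratio, the 5 with the highest and the 5 with the lowest H2O2-treated to hmt-deficient ratio, the 5 most abundant, runs of adjacent genes, and the 3 nearest to the threshold on either side. Planned product lists and promoter motifs were not analysed here, because the tables used hold no products and no sequences. Python 3.11.15, numpy 2.4.6, pandas 2.3.3, scipy 1.17.1 and matplotlib 3.10.9 were used.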

Additional observations from a re-analysis of the deposited data

How the results depend on the processing

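No paired analysis was possible because each group holds 1 library, and no replicate could be left out. The number of genes in the set, 80, was 86 with a pseudocount of 0.1, 55 with 5, 79 as TPM, 83 with the authors' normalized hmt-deficient column and 104 with ratios centred on their medians, all within 1.5 times. By construction a 2-fold threshold gave 243 genes and an 8-fold threshold 22. All 80 were kept with a pseudocount of 0.1, without a minimum, with centring and with the normalized column, 78 as TPM, 66 with a minimum of 50 FPKM and 55 with a pseudocount of 5. The next counts and medians are over the genes chosen anew under each setting. Genes 2-fold or more higher after H2O2 than in the hmt-deficient strain numbered 8, but 5 as TPM, 5 with the normalized column, 20 at the 2-fold and 4 at the 8-fold threshold. Those 2-fold or more lower numbered 14, but 19 with a pseudocount of 0.1, 19 as TPM and 19 with the normalized column. This number was 3 with a pseudocount of 5 (13 over the original 80), 41 at the 2-fold and 4 at the 8-fold threshold. Centring gave 11 higher and 17 lower over the genes chosen anew, and 11 in each direction over the original 80. Within the original 80 the excess on the lower side was thus absent after centring. The median log2 ratio of H2O2-treated to hmt-deficient, -0.12, was -0.29 with a pseudocount of 0.1, 0.10 with 5, -0.0066 with a minimum of 50 FPKM, -0.26 as TPM, -0.22 with the normalized column and 0.17 at the 8-fold threshold. Over the original 80 genes it was -0.13 and -0.10 with pseudocounts of 0.1 and 5, -0.31 as TPM and -0.31 with the normalized column, so the positive values at a pseudocount of 5 and at 8-fold come with the loss of 25 and 58 genes. Centring, which by construction sets the median of all genes to 0, gave 0.22 over the 80. The share near chromosome ends, 15% within 20 genes, was 8.75% within 10 and 7.5% within 5 genes, and 5.56% without the first end of chromosome 3, an alternative chosen after seeing the data. Genes next to another of the set numbered 6, 10 within 2 genes, 42 at the 2-fold threshold and 0 without that end. Motif shares were not run. For single named genes no ratio of 2-fold or more changed sign with a pseudocount of 0.1 or as TPM. A pseudocount cannot change a sign and the TPM shift was below 2-fold, so this was fixed in advance. As TPM, 66 log2 ratios of named genes moved by more than 0.1 and 33 did not. With a pseudocount of 0.1 these numbers were 38 and 61. Direct log2 ratios near 0 did change sign as TPM, for example from 0.02 to -0.17 for PAS_chr3_0403 and from 0.11 to -0.08 for PAS_chr3_0982. Depth limits the 8 genes with fewer than 20 untreated fragments.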
